A study of Mus musculus with 12 samples.

Results

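Messenger RNA levels of 10 genes of antioxidant defence were followed in the embryonic mouse brain after prenatal alcohol exposure. The genes were *Nfe2l2*, *Keap1*, *Hmox1*, *Nqo1*, *Gclc*, *Gclm*, *Gpx1*, *Gpx4*, *Sod1* and *Sod2*, taken by name from a table of 13770 gene models, and the table held all 10. The samples were 12 whole brains of C57BL/6 mice at embryonic day 18. In 6 PAE brains the dam drank ethanol in a saccharin solution during mating and pregnancy, and in 6 SAC (control) brains the dam drank saccharin alone, so both groups shared saccharin and no embryo was free of it. Each group held 3 females and 3 males, and the dams drank by their own choice, so the dose of a single embryo is not known. PAE brains carry the names ES19-4, ES23-7 and ES27-4 (female) and ES19-8, ES23-4 and ES27-1 (male), and SAC brains the names SAC12-5, SAC26-5 and SAC26-7 (female) and SAC12-6, SAC12-7 and SAC26-8 (male). Nothing in the labels says whether a shared prefix such as ES23 marks a litter, and brains were taken as independent, so p-values measure the spread between these brains only.

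Cells meet reactive oxygen species with enzymes that remove superoxide and peroxides and with a transcription factor that raises many protective genes at once. That factor is NRF2, the product of *Nfe2l2*. KEAP1 holds NRF2 in the cytoplasm and hands it to a CUL3 ubiquitin ligase for breakdown. Oxidants and electrophiles modify KEAP1, and NRF2 then enters the nucleus and binds antioxidant response elements near genes such as *Hmox1*, *Nqo1*, *Gclc* and *Gclm*. Ethanol metabolism is known as a source of reactive oxygen species, and the fetal brain is often described as poorly equipped to remove them.

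Short stretches of sequence are shown for some of these genes. RefSeq promoter windows (GRCm38.p6, 250 bases before to 50 bases after a start site) were at hand for 8 of the 10 genes, all but *Hmox1* and *Gclc*. The core of the antioxidant response element, searched as TGACNNNGC on both strands, stood in 3 of the 11 windows of these genes. Each of the 3 belonged to a different gene, and 12.4% of all 32851 windows held the core. The 3 matches are printed 5′ to 3′ on the strand of the gene, with the match in capitals. In *Gclm* and *Sod1* the letters lie on the opposite strand and therefore read GCNNNGTCA.
Nfe2l2, chr2:75704879-75704913, minus strand: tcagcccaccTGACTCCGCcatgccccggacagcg
Gclm, chr3:122245407-122245447, plus strand: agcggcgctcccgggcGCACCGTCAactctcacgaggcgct
Sod1, chr16:90220690-90220730, plus strand: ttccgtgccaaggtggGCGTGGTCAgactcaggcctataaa
A match is only a string of letters in a window of this length, and its absence from the other windows says nothing on the binding of NRF2.

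*Gpx1* and *Gpx4* encode selenoproteins, in which a TGA codon inside the reading frame is read as selenocysteine, the residue that reduces peroxides. These codons are shown in capitals from the mouse transcripts of GENCODE M21 (GRCm38).
Gpx1-201, codon 47, chr9:108339451-108339453: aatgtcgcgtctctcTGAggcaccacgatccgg
Gpx4-202, codon 73, chr10:80054737-80054739: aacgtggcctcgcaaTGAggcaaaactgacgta
The table lists a pair of coding *Gpx1* transcripts that leave exon 1 at the same base and enter exon 2 at sites 3 bases apart, with these bases in capitals. Gpx1-201, of 1072 bases, also starts earlier and ends later than Gpx1-202, of 787 bases. They are shown because the values of *Gpx1* described further on differ by transcript.
Gpx1-201, junction of exons 1 and 2: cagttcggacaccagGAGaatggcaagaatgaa
Gpx1-202, junction of exons 1 and 2: cagttcggacaccagaatggcaagaatgaa

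Levels are given as FPKM, fragments scaled by transcript length and by the fragments of the library, as deposited. Only genes whose FPKM averaged 1 or more across the brains were tested, 12346 in all, and every one of the 10 antioxidant genes was among them. Comparisons used limma on log2(FPKM + 1) with Benjamini-Hochberg adjustment over the 12346 genes, and a gene was called at an adjusted p under 0.05. Fold changes on this scale understate the change of low genes. The FPKM of a brain summed to between 218026 (ES23-7) and 232863 (ES19-4). All 10 neuron markers were present and summed to 1366 to 1686 FPKM in PAE brains and 1541 to 1686 FPKM in SAC brains. Markers of regions and cell types differed between brains. The summed FPKM of 14 *Hox* genes, which mark hindbrain and spinal cord, was 62.9 in ES19-4 and at most 0.178 in the other PAE brains, and it was 0.261 in SAC12-6 and 24.6 to 70.2 in the other SAC brains. Markers of cortical excitatory neurons, all 9 present, summed to 393 to 563 FPKM in PAE brains and 251 to 409 FPKM in SAC brains, and markers of astrocytes, all 12 present, to 265 to 477 FPKM in PAE brains and 433 to 550.1 FPKM in SAC brains. Results were also computed without ES19-4 and SAC12-6 and with the *Hox* level as a covariate, and the part of the other markers was not tested. In bulk tissue, fewer cells of a type and less RNA per cell cannot be told apart.

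In PAE vs. SAC brains none of the 10 antioxidant genes was called, whereas 9.56% of all tested genes were (4.34% higher and 5.22% lower in PAE). *Gpx1* came nearest, with a mean level of 20.2 ± 1.44 FPKM in PAE and 33.2 ± 12.1 FPKM in SAC brains (SD, n = 6 each) and an adjusted p of 0.0716. It was also the only one of the 10 with an unadjusted p under 0.05, against 28.5% of all tested genes, and the only one past the threshold of the study, a 1.5-fold change at an unadjusted p under 0.05, against 0.996% of all tested genes. Fold change and p for this threshold came here from limma on log2(FPKM + 1), not from the study's own calculation. The median log2 fold change of the 10 genes was -0.051 and that of all tested genes 0.0052, with 3 genes above 0 and 7 below. In no gene did the PAE and SAC brains separate fully, and they did so in 4.03% of all tested genes.

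**Figure D1:**
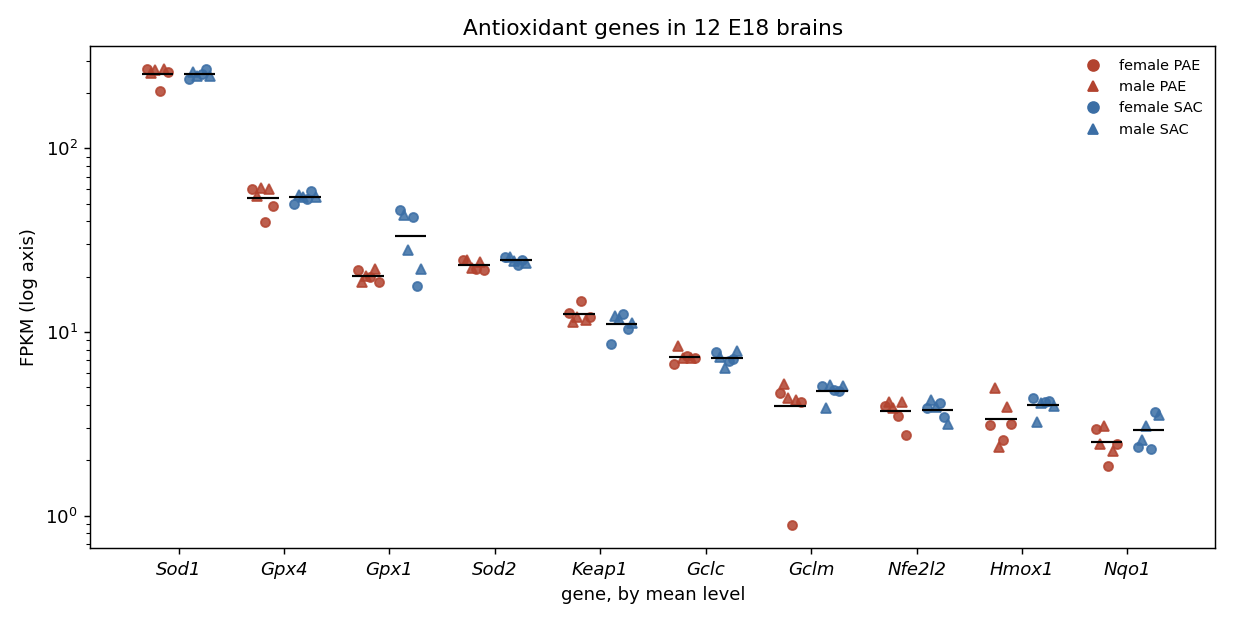
FPKM of the 10 antioxidant genes in each brain on a log axis, ordered by mean level, with PAE in red, SAC in blue, females as circles, males as triangles and the mean of each group as a black line. *Sod1* lies near 254 FPKM and *Nqo1* near 2.71 FPKM, PAE and SAC brains overlap in every gene, and the low circle of *Gclm* is ES23-7 at 0.884 FPKM.

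*Sod1* was the most abundant of the 10 by far. On the FPKM scale, which is per length, its mean level over 12 brains was 254, above 99.5% of the genes in the table, and it made up 60.8% to 68.3% of the summed FPKM of the 10 genes in each brain. *Gpx4* followed at a mean level of 54.1 FPKM, *Gpx1* at 26.7, *Sod2* at 23.9, *Keap1* at 11.8, *Gclc* at 7.28, *Gclm* at 4.36, *Nfe2l2* at 3.75, *Hmox1* at 3.67 and *Nqo1* at 2.71. Neighbours in this order were apart in every brain for *Sod1* over *Gpx4*, *Gpx4* over *Gpx1*, *Sod2* over *Keap1*, *Keap1* over *Gclc* and *Gclc* over *Gclm*. *Gpx1* stood above *Sod2* in only 4 of 12 brains. The 4 lowest genes overlapped in their ranges, and *Nfe2l2* was above *Hmox1* in only 5 brains.

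*Nfe2l2* (ENSMUSG00000015839.6, chr2:75675513-75704641, minus strand) was low, and the groups overlapped. It measured 2.74, 3.91 and 4.16 FPKM (lowest, median and highest) in PAE and 3.14, 3.87 and 4.24 FPKM in SAC brains, and only ES27-4 fell below the SAC range. On the log2 scale the change was -0.018, with a 95% interval from -0.20 to 0.17 and an adjusted p of 0.914. ES27-4 was also the lowest brain in the summed level of 12 microglia markers, at 22.98 FPKM against at least 43.7 FPKM in every other brain. It was likewise the lowest for 9 endothelial markers, at 52.6 against at least 70.6 FPKM, and for 8 fibroblast markers, at 37.7 against at least 47.8 FPKM. The part of these cells in the *Nfe2l2* value was not tested.

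*Keap1*, the repressor (ENSMUSG00000003308.15, chr9:21229730-21239361, minus strand), measured 11.3, 12.1 and 14.8 FPKM in PAE and 8.54, 11.4 and 12.5 FPKM in SAC brains. The highest brains were ES23-7 and ES19-4 and the lowest SAC12-5, SAC26-7 and SAC26-8, with the rest overlapping. Its log2 fold change of 0.16 (95% interval -0.02 to 0.34) was the largest upward among the 10 genes and did not pass (adjusted p = 0.235). ES23-7 was also the brain with the highest summed level of cortical neuron markers, 563 FPKM, and SAC12-5, SAC26-7 and SAC26-8 were the 3 lowest, at 269, 278 and 251 FPKM. ES19-4, in contrast, was the lowest PAE brain for these markers, at 393 FPKM. The part of these cells in the *Keap1* values was not tested. An antisense gene model, Gm16754, overlaps 3317 bases of *Keap1*. The kit was stranded, but whether the counting used strand is not stated.

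*Hmox1*, *Nqo1* and the glutamate-cysteine ligase pair are known targets of NRF2. Heme oxygenase 1, the product of *Hmox1*, breaks heme down to biliverdin, iron and carbon monoxide. *Hmox1* (ENSMUSG00000005413.8, chr8:75093621-75100589, plus strand) measured 2.38, 3.12 and 4.97 FPKM in PAE and 3.23, 4.13 and 4.36 FPKM in SAC brains, so that 4 PAE brains lay below every SAC brain and ES19-8 above all of them. PAE minus SAC was -0.23 on the log2 scale (95% interval -0.49 to 0.03, adjusted p = 0.237). It was -0.32 without ES19-8 and its adjusted p was then 0.0610, the lowest of any brain left out.

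The quinone reductase gene *Nqo1* (ENSMUSG00000003849.8, chr8:107388225-107403206, minus strand) was the lowest of the 10, at 1.86, 2.45 and 3.07 FPKM in PAE and 2.29, 2.82 and 3.65 FPKM in SAC brains. SAC26-7 and SAC26-8 stood above the PAE range and ES23-7 and ES27-1 below the SAC range. *Nqo1* had a log2 fold change of -0.15 (95% interval -0.39 to 0.08, adjusted p = 0.374).

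Glutamate-cysteine ligase makes the first step of glutathione synthesis, with *Gclc* for the catalytic and *Gclm* for the modifier subunit. *Gclc* (ENSMUSG00000032350.9, chr9:77754535-77794485, plus strand) measured 6.73, 7.19 and 8.35 FPKM in PAE and 6.36, 7.22 and 7.87 FPKM in SAC brains. PAE minus SAC was 0.019 on the log2 scale (95% interval -0.11 to 0.14, adjusted p = 0.861), and only 23.2% of tested genes varied as little or less over the brains.

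*Gclm* (ENSMUSG00000028124.15, chr3:122245557-122270732, plus strand) departed most from its partner in a single brain. It measured 0.884, 4.31 and 5.20 FPKM in PAE and 3.83, 4.96 and 5.13 FPKM in SAC brains, and the lowest value belonged to ES23-7. The ratio of *Gclc* to *Gclm* levels was 8.33 in ES23-7 and between 1.24 and 1.90 in the other 11 brains. Their Pearson r on the log2 scale was -0.0072 over all brains and 0.20 without ES23-7. The log2 fold change of *Gclm* was -0.32 (95% interval -0.83 to 0.19, adjusted p = 0.392) with all brains and -0.063 without ES23-7. The only *Gclm* transcript in the table, Gclm-201, stood at 0.726 FPKM in ES23-7 and at 4.09 to 5.70 FPKM in the other brains. A pseudogene on the same strand, Gm6061, and a transcript model on the opposite strand, Gm17494, overlap *Gclm*, and their share of its reads is not known.

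The glutathione peroxidases reduce peroxides with glutathione, *Gpx1* in the cytosol and mitochondria for soluble peroxides and *Gpx4* for lipid peroxides in membranes. *Gpx1* (ENSMUSG00000063856.7, chr9:108338903-108340343, plus strand) gave the widest gap of the 10 genes. In PAE brains it was 21.7 FPKM in ES19-4, 18.7 in ES19-8, 20.2 in ES23-4, 20.0 in ES23-7, 22.0 in ES27-1 and 18.7 in ES27-4. In SAC brains it was 46.1 FPKM in SAC12-5, 43.1 in SAC12-6, 27.9 in SAC12-7, 42.3 in SAC26-5, 17.8 in SAC26-7 and 22.0 in SAC26-8. The PAE brains thus lay close together, whereas 3 SAC brains stood at 42.3 FPKM or more, SAC12-7 lay between, SAC26-8 was level with the highest PAE brain and SAC26-7 was below every PAE brain. The spread of *Gpx1* over the brains exceeded that of 97.7% of tested genes. The log2 fold change was -0.61 (SE 0.202, 95% interval -1.04 to -0.17, unadjusted p = 0.01001, adjusted p = 0.0716).

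The brains that set this gap were few. Leaving out SAC26-7 gave a log2 fold change of -0.76 at an adjusted p of 0.0471, the only one of 26 other settings in which any of the 10 genes was called, while leaving out SAC12-5 gave -0.50 at an adjusted p of 0.134. The 3 high SAC brains held both sexes and both name prefixes. Their *Hox* sums were 61.1 FPKM in SAC12-5, 0.261 in SAC12-6 and 24.6 in SAC26-5, against 28.8 FPKM in SAC26-7, where *Gpx1* was lowest. The summed level of 9 red cell markers, given because *Gpx1* is known to be abundant in red cells, was 3043 FPKM in SAC12-5, 1773 in SAC12-6, 2439 in SAC26-5 and 2506 in SAC26-7. Over all 12 brains *Gpx1* had a Pearson r of 0.30 with the *Hox* sum and 0.086 with the red cell sum, on the log2 scale. The part of these cells in the *Gpx1* values was not tested. Without ES19-4 and SAC12-6 the adjusted p of *Gpx1* was 0.114. Its log2 fold change was then -0.54, which no longer passed the 1.5-fold threshold on the log2(FPKM + 1) scale.

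**Figure D2:**
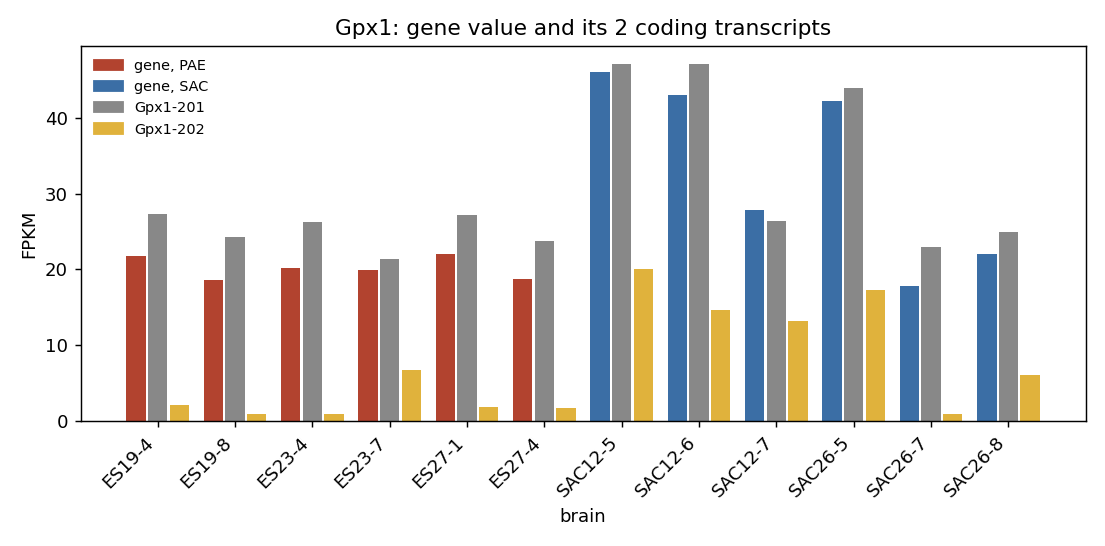
FPKM of *Gpx1* in each brain, with the gene value (red for PAE, blue for SAC) beside those of the coding transcripts Gpx1-201 (grey) and Gpx1-202 (yellow). SAC12-5, SAC12-6 and SAC26-5 stand above 42 FPKM for the gene, and SAC26-7 has the lowest gene value, 17.8 FPKM.

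The transcript table showed the same SAC brains to be high. Gpx1-201 measured 21.3 to 27.3 FPKM in PAE brains, and in SAC brains 47.2 in SAC12-5, 47.1 in SAC12-6, 44.0 in SAC26-5 and at most 26.4 in the others. Gpx1-202 measured 0.846 to 2.05 FPKM in 5 PAE brains and 6.72 FPKM in ES23-7, and in SAC brains 20.0, 14.7, 13.2, 17.3, 0.851 and 6.11 FPKM in the order SAC12-5, SAC12-6, SAC12-7, SAC26-5, SAC26-7 and SAC26-8. As a share of both transcripts, Gpx1-202 took 3.12% to 24.0% in PAE and 3.57% to 33.3% in SAC brains. The log2 fold change was -1.80 for Gpx1-202 (SE 0.574, adjusted p = 0.166) and -0.42 for Gpx1-201 (95% interval -0.84 to -0.01, adjusted p = 0.319). The pair differs by these 3 bases at the exon 2 boundary and by its ends, so the split of reads between them is uncertain, and the gene value is not the sum of the transcripts.

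Of 16 transcripts of the 10 genes among 29097 in the table, 15 were tested and none was called for PAE vs. SAC, where 0% of the 20937 tested transcripts were called by limma. At an unadjusted p under 0.05 stood 2 of the 15, both of *Gpx1*, against 15.1% of all tested transcripts. *Keap1* also had several listed transcripts. Keap1-202 made up 47.9% to 66.1% of the summed FPKM of its 4 transcripts in PAE brains, and 59.8% to 65.9% in SAC brains except SAC12-5 at 33.7% and SAC26-5 at 38.3%.

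*Gpx4* (ENSMUSG00000075706.10, chr10:80047166-80056439, plus strand) measured 39.7, 57.4 and 60.9 FPKM in PAE and 50.002, 54.2 and 58.3 FPKM in SAC brains. ES23-7 and ES27-4 lay below the SAC range and 3 PAE brains above it, and the log2 fold change was -0.024 (95% interval -0.22 to 0.17, adjusted p = 0.890). Most of the signal was in Gpx4-202, at 65.6 to 106 FPKM.

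The superoxide dismutases turn superoxide into hydrogen peroxide and oxygen, *Sod1* with copper and zinc in the cytosol and *Sod2* with manganese in mitochondria. *Sod1* (ENSMUSG00000022982.9, chr16:90220742-90226322, plus strand) measured 205, 264 and 271 FPKM in PAE and 239, 251 and 270.4 FPKM in SAC brains. ES23-7 was the lowest of all, whereas the other 5 PAE brains, at 257 FPKM or more, lay above 4 SAC brains and overlapped with SAC12-6 and SAC26-7. The log2 fold change was 0.0063 (95% interval -0.13 to 0.15, adjusted p = 0.961), and 0.068 without ES23-7 (adjusted p = 0.223). *Scaf4* overlaps the 3′ end of *Sod1* by 650 bases on the other strand.

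*Sod2* (ENSMUSG00000006818.4, chr17:13007839-13018119, plus strand) had the narrowest range, 21.7, 23.1 and 24.7 FPKM in PAE and 23.3, 24.5 and 25.7 FPKM in SAC brains. The PAE brains ES23-4, ES23-7 and ES27-4 lay below every SAC brain. *Sod2* had a log2 fold change of -0.079 (95% interval -0.17 to 0.01, adjusted p = 0.242). Only 13.2% of tested genes varied as little. The same brains were also the 3 lowest in the summed astrocyte markers, at 308, 296 and 265 FPKM, and in the 9 oligodendrocyte markers, at 46.8, 47.0 and 48.6 FPKM. They were the 3 highest in the cortical neuron markers, at 549, 563 and 520 FPKM. The part of these cells in the *Sod2* values was not tested.

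The study asked whether changes after PAE depended on sex, and the 10 genes were therefore compared within each sex. In males none was called, where 0.0324% of tested genes were, and in females none was called, where 0% were. The limma tests gave an unadjusted p under 0.05 to 0 of the 10 genes in males (19.3% of all tested genes) and to *Keap1* and *Hmox1* in females (14.3% of all tested genes, 1763 genes).

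*Hmox1* in females measured 2.57, 3.10 and 3.14 FPKM in PAE and 4.14, 4.21 and 4.36 FPKM in SAC brains, and all female PAE brains lay below all female SAC brains. This was a log2 fold change of -0.41 in females (95% interval -0.78 to -0.05, adjusted p = 0.329) and -0.039 in males (95% interval -0.41 to 0.33, adjusted p = 0.921). Males overlapped widely, from 2.38 to 4.97 FPKM in PAE and from 3.23 to 4.11 FPKM in SAC brains. The difference between the sexes had an unadjusted p of 0.140 and an adjusted p of 1.00.

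*Keap1* in females measured 12.1, 12.7 and 14.8 FPKM in PAE and 8.54, 10.4 and 12.5 FPKM in SAC brains, which overlapped. Its log2 fold change was 0.32 in females (95% interval 0.07 to 0.56, adjusted p = 0.309) and -0.00102 in males (adjusted p = 0.997). The difference between the sexes had the smallest unadjusted p of the 10 genes, 0.0664, and did not pass (adjusted p = 1.00).

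Full separation within a sex was seen for *Hmox1* and *Gclm* in females, as in 14.7% of all tested genes, and for *Gpx1* in males, as in 32.9% of all tested genes. *Gclm* reached 4.68 FPKM at most in female PAE brains and 4.75 FPKM at least in female SAC brains. *Gpx1* reached 22.02 FPKM at most in male PAE brains and 22.05 FPKM at least in male SAC brains, so that this separation rested on a narrow gap. The log2 fold change of *Gpx1* was -0.54 in males (adjusted p = 0.353) and -0.68 in females (adjusted p = 0.350). None of the 10 genes was called by limma for the interaction of sex and treatment, where 0.0081% of tested genes were, or for female vs. male brains, where 0.0324% were. At an unadjusted p under 0.05 stood 0 of the 10 in either comparison, against 3.95% and 2.73% of all tested genes.

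**Figure D3:**
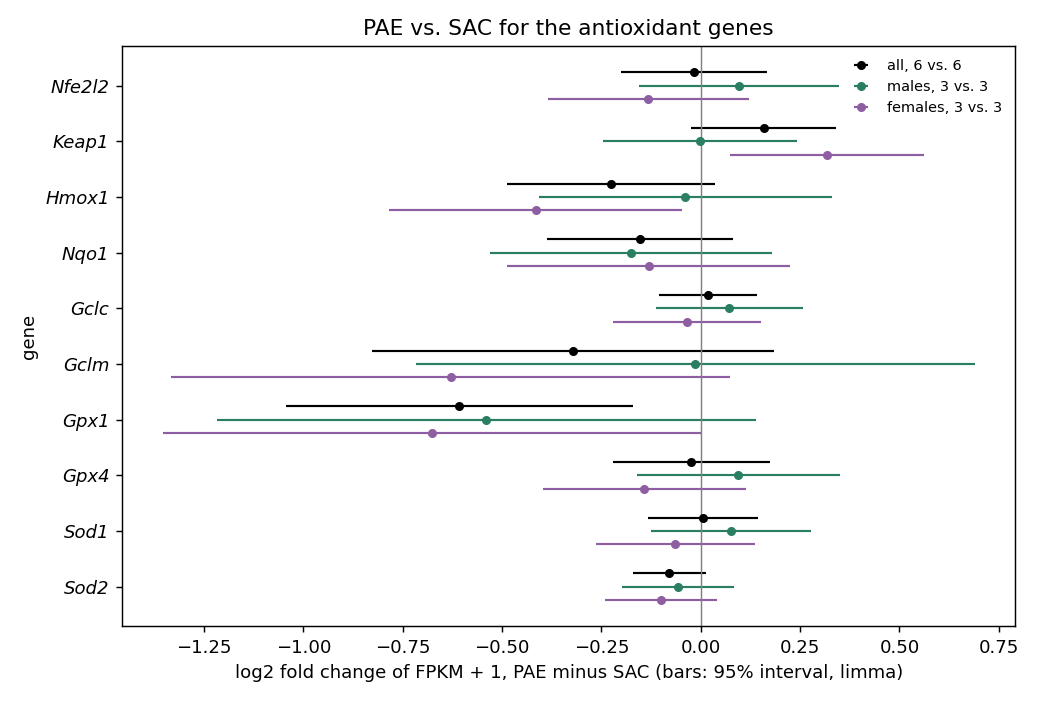
Log2 fold change of FPKM + 1, PAE minus SAC, with 95% intervals from limma, for all brains (black, 6 vs. 6), males (green, 3 vs. 3) and females (purple, 3 vs. 3). The interval over all brains excludes 0 for *Gpx1* alone (-1.04 to -0.17), and in females those of *Keap1* and *Hmox1* do, yet none of the 10 genes passed the adjustment over all tested genes.

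Among the 45 pairs of the 10 genes, levels went together over the 12 brains most closely for *Gpx4* and *Sod1*. Their Pearson r was 0.91 (permutation p = 0.00045, adjusted p = 0.0203) and Spearman's rho 0.77 (permutation p = 0.00475, adjusted p = 0.107). Within PAE brains r was 0.92 and within SAC brains 0.93, and without ES23-7 and ES27-4, the brains farthest from the median of *Gpx4*, it was 0.95. Without ES23-7 alone it was 0.73. No other pair passed by Pearson's r and none passed by Spearman's rho. *Hmox1* and *Gclm* had r = 0.59 and rho = 0.78 (adjusted p = 0.236 and 0.107), and *Keap1* and *Hmox1* r = -0.63 and rho = -0.71 (adjusted p = 0.236 and 0.189). For *Gclm* and *Gpx4* an r of 0.75 fell to -0.17 without ES23-7.

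The genes whose levels were most like each member over the 12 brains were listed by Pearson r on the log2 scale among the other 12345 tested genes, as a description. *Sod1* was nearest to *Hint1* (0.96), *Emc6* (0.96) and *Timm8b* (0.95), and *Gpx4* to *Ubald1* (0.95), *Commd9* (0.93) and *Timm8b* (0.93). *Gpx1* had weaker neighbours, *Rab23* (0.81), *Ficd* (0.80) and *Fn3krp* (0.79). *Sod2* was nearest to *Ildr2* (0.95), *Htr5a* (0.89) and *Ndst1* (0.89), *Gclc* to *Zfp983* (0.90), *Slc25a10* (0.89) and *Cdk5* (0.83), and *Keap1* to *Zfp46* (0.90) and *Chsy1* (0.88). The neighbours of *Nfe2l2* were Gm5814 (0.89), *Fmod* (0.88) and *Sult1a1* (0.88), those of *Hmox1* included *Ass1* (0.85) and *Prelp* (0.84), and those of *Nqo1* were *Tpgs2* (0.85), *Sp5* (0.85) and BC004004 (0.85). *Gclm* was nearest to Gm20431 (0.97), *Idh3b* (0.97) and *Mdp1* (0.96), and these values rested on ES23-7, without which they were 0.54, 0.65 and 0.18. Some other values fell less without ES23-7, in the order named to 0.84, 0.82 and 0.81 for *Sod1* and 0.87, 0.80 and 0.78 for *Gpx4*. Those of *Nqo1* fell to 0.79, 0.78 and 0.78, whereas those of *Gclc* did not fall (0.90, 0.89 and 0.84).

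Other genes around the pathway were grouped in 8 lists, of which 118 of 128 genes were in the table and 116 were tested. PAE vs. SAC brains differed in 14 of them, 7 higher and 7 lower in PAE, which is 12.1% of the list genes against 9.56% of all tested genes. The counts given below for single lists stand against the same background, with 4.34% of all tested genes higher and 5.22% lower in PAE. PAE and SAC brains did not overlap in 4 of the 116 (3.45%), against 4.03% of all tested genes. With the *Hox* level as a covariate, or with the means of each name prefix as samples, none of the 14 passed, and no other tested gene did. Prefix means leave fewer samples, and the *Hox* level largely followed treatment, so both settings have less power. A count of 0 there cannot decide whether a gene differs. Without ES19-4 and SAC12-6 13 of the 14 passed. Leaving out SAC26-8 left 1 of the 14, leaving out ES23-4 or SAC26-7 left 2, SAC12-5 3, SAC12-7 4 and ES27-4 5. Leaving out ES19-8 left 6, ES27-1 7, SAC12-6 10, SAC26-5 11, ES23-7 12 and ES19-4 all 14. The sign stayed the same in all 14 each time. Of the 12 brains left out in turn, 10 ended the call of *Cul3*, *Gstm1* and *G6pdx* and 9 that of *Mgst1* and *Slc40a1*. For *Nfe2l3*, *Aldh1l1*, *Idh2* and *Selenow* 7 did so, for *Selenom* 6, *Selenot* 5, *Me1* 3, *Prdx2* 1 and *Msra* 0. Median-of-ratios scaling left 12, without *Gstm1* (adjusted p = 0.0519) and *G6pdx* (0.0531), and quantile normalization left 11, without *Mgst1* (0.0564), *G6pdx* (0.0674) and *Selenow*. With the sum of transcripts as the gene level 7 passed and 13 kept their sign, all but *Idh2*.

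Around NRF2 itself 13 genes were tested. *Nfe2l3*, a relative of *Nfe2l2*, rose from 6.80 ± 0.727 FPKM in SAC to 8.28 ± 0.383 FPKM in PAE brains (SD, n = 6 each, log2 fold change 0.25, adjusted p = 0.0288), with all PAE brains above all SAC brains. *Cul3*, the scaffold of the ligase that KEAP1 serves, fell from 44.5 ± 1.69 to 40.5 ± 1.38 FPKM (log2 fold change -0.13, adjusted p = 0.0360), again without overlap. The other 11 did not pass. The largest gap was that of *Nfe2l1*, a relative that governs proteasome genes, with 20.2 to 25.0 FPKM in ES19-8, ES23-4, ES23-7 and ES27-4, 7.87 in ES19-4, 8.41 in ES27-1 and 8.81 to 9.73 in SAC brains (log2 fold change 0.77, adjusted p = 0.0715). The step lay in the transcript Nfe2l1-203, at 27.1, 22.1, 23.2 and 25.9 FPKM in ES19-8, ES23-4, ES23-7 and ES27-4, 2.65 in ES19-4, 3.96 in ES27-1 and 2.48 to 4.39 in SAC brains.

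Of 17 peroxiredoxin and thioredoxin genes 1 rose and none fell. *Prdx2*, a cytosolic peroxiredoxin, rose from 58.4 ± 1.32 to 65.4 ± 2.35 FPKM (log2 fold change 0.16, adjusted p = 0.0203), with no overlap of the groups, and of the 12 brains left out in turn only SAC26-8 ended its call (adjusted p = 0.0525). The thioredoxin reductase genes *Txnrd2* (log2 fold change -0.23, adjusted p = 0.112) and *Txnrd3* (-0.15, adjusted p = 0.113) did not pass.

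Of 27 tested genes of glutathione synthesis, recycling and transfer 2 fell and none rose (5.22% and 4.34% of all tested genes). A log2 fold change below 0 was found in 21 of the 27. The median of the 27 was -0.063, against 0.0052 for all tested genes. The transferase genes *Mgst1* (2.40 ± 0.239 FPKM in SAC, 1.73 ± 0.344 in PAE, log2 fold change -0.32, adjusted p = 0.0392) and *Gstm1* (43.0 ± 2.72 FPKM in SAC, 32.1 ± 7.16 in PAE, log2 fold change -0.44, adjusted p = 0.0490) fell, and ES19-4 was the highest PAE brain for *Gstm1* at 42.4 FPKM. *Gstm1* has close relatives that share sequence, so its value is uncertain. *Gsta4* just missed (log2 fold change -0.30, adjusted p = 0.0568). ES19-4 was also the PAE brain with the highest astrocyte marker sum, 477 FPKM, and the part of those cells in the transferase values was not tested.

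Of 10 other superoxide and peroxide genes 1 rose. *Msra*, which repairs oxidized methionine, rose from 7.04 ± 0.484 to 9.14 ± 0.902 FPKM (log2 fold change 0.33, adjusted p = 0.0197) and was the only one of the 14 to stay called whichever brain was left out, at an adjusted p of 0.0483 or less. *Ucp2* (log2 fold change -0.24, adjusted p = 0.0654) and *Sod3*, the extracellular superoxide dismutase (-0.26, adjusted p = 0.0824), did not pass.

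Of 14 genes that make NADPH, on which glutathione and thioredoxin recycling draw, 2 rose and 2 fell. *Idh2*, mitochondrial isocitrate dehydrogenase, rose from 29.6 ± 1.83 to 34.2 ± 2.27 FPKM (log2 fold change 0.20, adjusted p = 0.0315), with no overlap, but the sum of its transcripts gave a log2 fold change of -0.75 (adjusted p = 0.0881). The malic enzyme gene *Me1* fell from 20.5 ± 2.10 to 14.8 ± 2.72 FPKM (log2 fold change -0.45, adjusted p = 0.0235) and *Aldh1l1* from 7.31 ± 0.766 to 5.75 ± 0.621 FPKM (log2 fold change -0.30, adjusted p = 0.0296). *Aldh1l1* is itself used as an astrocyte marker. The other rise was that of *G6pdx*, the entry enzyme of the pentose phosphate pathway (log2 fold change 0.16, adjusted p = 0.0497), which is named as the remaining called gene after its value was seen.

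Of 15 genes of heme and iron handling 1 rose, the iron exporter gene *Slc40a1*, from 1.17 ± 0.115 to 1.58 ± 0.255 FPKM (log2 fold change 0.25, adjusted p = 0.0469). Its level lay near the filter and the pseudocount, both 1. *Slc40a1* did not pass in limma at a pseudocount of 0.1 (adjusted p = 0.0514). Neither did it with sex as a covariate (0.0613) or with the name prefix as a random block (0.0613). *Hmox2*, the constitutive heme oxygenase, stood at 32.2 ± 2.82 FPKM in PAE and 35.0 ± 0.771 FPKM in SAC brains (log2 fold change -0.12, adjusted p = 0.143). *Aco1* did not pass (adjusted p = 0.307).

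Of 18 genes of selenium handling and other selenoproteins 1 rose and 2 fell. *Selenow* rose from 318 ± 12.6 to 355 ± 17.1 FPKM (log2 fold change 0.16, adjusted p = 0.0356), but under quantile normalization its log2 fold change was 0.075 (adjusted p = 0.332). *Selenot* fell from 70.7 ± 3.14 to 61.6 ± 3.89 FPKM (log2 fold change -0.20, adjusted p = 0.0255) and *Selenom* from 25.4 ± 1.64 to 19.4 ± 3.42 FPKM (log2 fold change -0.39, adjusted p = 0.0309), both in the endoplasmic reticulum. Of 12 genes that produce reactive oxygen species, 3 were in the table and 2 tested, and neither *Cyba* (adjusted p = 0.403) nor *Rac1* (adjusted p = 0.462) passed.

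**Figure D4:**
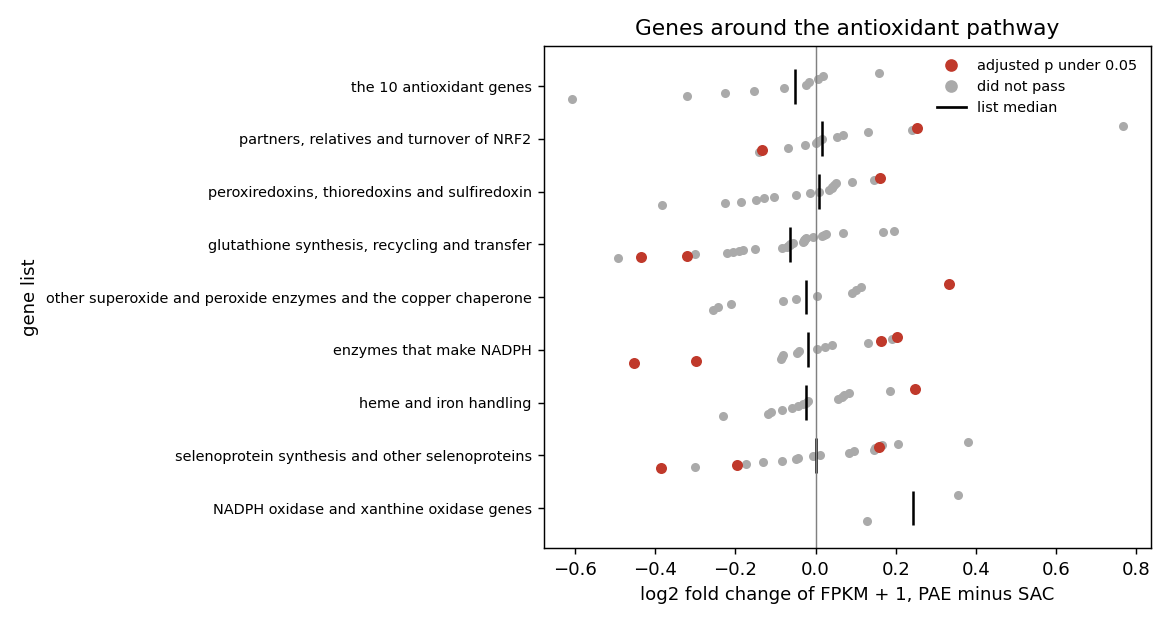
Log2 fold change of FPKM + 1, PAE minus SAC, for each tested gene of the 10 antioxidant genes and of 8 further lists, with genes at an adjusted p under 0.05 in red, others in grey and the median of each list as a black line. The 10 antioxidant genes hold no red point and *Gpx1* is the point at -0.61, while 7 of the 116 other genes are red to the right of 0 and 7 to the left.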

How the data were processed

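Poly-A RNA of 12 whole brains was sequenced as paired ends from stranded Kapa libraries. Quality control used FastQC, trimming cutadapt and alignment HISAT2, and the authors derived the deposited FPKM of genes and transcripts with StringTie and Ballgown. For tool versions: not given in the sources used here. Strand use in counting is not stated. The paper names the build GRCm28, and the loci match GRCm38: identifiers and loci of 8 of the 10 genes are those of GENCODE M21, and *Sod1* and *Sod2* carry newer versions there. Whole reads could not be recovered (at most 22% of 400 low values per library within 0.05 of a whole number), so depth and counting error are unknown.

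FPKM were transformed to log2(FPKM + 1), a pseudocount of 1, and tested in R 4.3.3 with limma 3.58.1 (empirical Bayes with trend), after a filter at a mean of 1 FPKM. PAE and SAC were compared without a covariate. Within-sex, interaction and sex contrasts came from 1 fit of 4 groups. Correlations used 100000 permutations, two-sided. The test was tested on simulated data. Alternatives changed the pseudocount, filter, scaling, covariates, moderation (statmod 1.5.0 for the random block), gene values and brains. Besides every member, the 3 genes of smallest p in each other list were named. Members and lists were chosen with earlier results of these data known. Some of the genes most like a member are not reported here.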

Additional observations from a re-analysis of the deposited data

Results flagged for a closer look

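In 10 of 52 groups of 6 brains (each antioxidant gene and each of its transcripts, in PAE and in SAC) the gap of 1 brain to the rest exceeded Dixon's 95% critical value. Chance alone does so in about 5% of separate groups, and among all tested genes 9.32% had such a brain in PAE and 6.57% in SAC. The 52 groups are not separate, because a gene and its transcripts share reads, so their count cannot be set against these shares. Among gene values alone, the flags were *Gclm* in PAE, *Gclm* in SAC and *Sod1* in PAE. Those of Gclm-201 and Sod1-201 repeat them.

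ES23-7 accounted for 5 of them. In PAE brains *Gclm* was 0.884 FPKM there, Gclm-201 0.726 FPKM, *Sod1* and its only transcript Sod1-201 205 FPKM, and Gpx1-202 6.72 FPKM, the last being high and the others low. ES23-7 was also the outlying brain in more tested genes than any other brain (468 genes, 3.79%) and the lowest brain in 2094 genes. Whether this belongs to the embryo or to the library was not tested.

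SAC12-6 was low for *Gclm* (3.83 FPKM) and Gclm-201 (4.09 FPKM) among SAC brains. In PAE brains ES19-8 was high for Gclc-201 (9.17 FPKM), ES27-1 for Keap1-204 (6.26 FPKM) and ES19-4 for Keap1-206 (1.54 FPKM), a transcript below the level at which transcripts were tested.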

How the results depend on the processing

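Over 26 other settings the count of called antioxidant genes for PAE vs. SAC was 0, except 1 (*Gpx1*) without SAC26-7, so that leaving out 1 brain gave 0 to 1. *Gpx1* ranged from -0.76 to -0.50 over the brains left out and from -0.68 to -0.54 over the other settings, with adjusted p from 0.0471 to 0.313. The count past the study's 1.5-fold threshold was 0 without ES19-4 and SAC12-6, and 0 to 1 with 1 brain left out (0 without SAC12-5, SAC12-6 or SAC26-5). Signs turned only where the log2 fold change was close to 0: under quantile normalization *Nfe2l2* was 0.0059 and *Sod1* -0.046, with the *Hox* level as a covariate *Gpx4* was 0.0087, and without ES19-4 and SAC12-6 *Sod1* was -0.00404. With 1 brain left out *Sod1* ranged from -0.013 to 0.068, *Gclc* from -0.015 to 0.041, *Gpx4* from -0.062 to 0.059 and *Nfe2l2* from -0.058 to 0.048. Within-sex, interaction and sex comparisons kept a count of 0 in every setting run. The number of all genes called for PAE vs. SAC ran from 0 (prefix means, *Hox* covariate) and 124 (without SAC26-8) to 2385 (without ES19-4), against 1180. No paired analysis was possible because replicate numbers given here follow accession order and pair no brains. Depth is unknown and 6 brains a group limit the precision. The 95% intervals given for each gene take the brains as independent and use no covariate. They show what is not excluded under those terms only and may be too narrow. For *Gpx1* the adjusted p in limma was 0.230 with prefix means as samples and 0.313 with the *Hox* level as a covariate. Both settings have less power, for the reasons given with the pathway lists.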

Other observations

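*Rac1*, a subunit of the NADPH oxidase complex that serves many other processes, fell into 2 separate ranges that crossed the groups. It measured 54.1 to 59.7 FPKM in ES19-4, ES19-8, ES23-4, ES27-1, SAC12-5 and SAC12-7, and 23.9 to 26.6 FPKM in ES23-7, ES27-4, SAC12-6, SAC26-5, SAC26-7 and SAC26-8, with no brain between, and Rac1-201, the only *Rac1* transcript in the table, showed the same division (58.3 to 64.4 FPKM and 25.7 to 28.6 FPKM). *Gpx1* and *Nfe2l1*, whose levels also stepped between brains, divided the brains differently: SAC12-5 was high for *Gpx1* and *Rac1* and SAC12-6 for *Gpx1* only, whereas *Nfe2l1* was high in ES19-8, ES23-4, ES23-7 and ES27-4. The cause of these steps was not tested.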
